A study of Homo sapiens with 8 samples.

Results

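NRF2, the protein of the NFE2L2 gene, is a transcription factor that cells hold at a low level because KEAP1 binds it and hands it to a ubiquitin ligase for destruction. Oxidants and electrophiles modify cysteines of KEAP1, NRF2 then accumulates, and with a small MAF partner it binds antioxidant response elements near genes for glutathione synthesis, thioredoxin reduction and quinone detoxification. Because much of this control acts on the protein, the RNA of NFE2L2 and KEAP1 and the RNA of the targets are separate readouts. The genes described here are NFE2L2, KEAP1 and 8 targets: NQO1, GCLC, GCLM, TXNRD1, TXN, SRXN1, OSGIN1 and GPX2. They were taken by gene name, and all 10 were found among the 62649 genes of the table, of which 19122 were tested. All 10 had at least 1 TPM in 2 or more libraries, GPX2 through AsPC-1 alone.

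RNA was sequenced from AsPC-1 and PANC-1, established human lines from pancreatic cancer whose labels give an unmodified genotype. After 3 days as spheroids in methylcellulose medium, each line was given vehicle, 10 µM roseoflavin, 1 nM trametinib or both compounds, and RNA was taken after 24 h. Roseoflavin is a bacterial analogue of riboflavin, which is the precursor of the flavin cofactors that NQO1 and thioredoxin reductase carry, and trametinib inhibits the kinases MEK1 and MEK2. Each line and treatment had 1 library, so there were 8 libraries and no replicates, and nothing in the labels ties a treatment to more than 1 culture. The error of a compound's change within a line, and of its difference between lines, rests on the matched pairs with and without the other compound. For a change within a line, both lines share 1 error per gene, drawn from the pairs of both. The errors of levels between lines, of changes over both lines and of the interaction of the compounds come from other models. These have no terms for a line's own response, so their errors also hold differences in response between the lines.

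In TPM, a share of transcripts scaled by gene length, every library has the same total and the read depth is unknown. Mitochondrial transcripts made up 41.2% to 44.1% of each AsPC-1 total but 22.8% to 25.6% of each PANC-1 total. KRT19, a ductal keratin, was at 1981 to 2323 TPM in AsPC-1 and 943 to 1032 TPM in PANC-1, and EPCAM at 1224 to 1485 and 14.5 to 16.8 TPM. Of the other epithelial markers, KRT8, KRT18 and CDH1 were also higher in AsPC-1, but KRT7 was at only 3.26 to 7.74 TPM. Of the mesenchymal markers, VIM was at 660 to 816 TPM in AsPC-1 and 3132 to 3391 TPM in PANC-1. ZEB1 and CDH2 were also higher in PANC-1, while FN1 was at 0.533 TPM or less in each library. The leukocyte markers PTPRC and CD3E and the endothelial markers PECAM1, VWF and CDH5 were at 0.082 TPM or less in each library, while CD68, also on the leukocyte list, was at 108 to 114 TPM in AsPC-1 and at 125, 139, 120 and 136 TPM in the PANC-1 libraries with vehicle, roseoflavin, trametinib and both. On the fibroblast list COL1A1 was at 98.9 to 107 TPM in PANC-1 and at 0.121 TPM or less in AsPC-1, and DCN was at 0.083 TPM or less in both lines.

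Promoter sequence is shown for genes that were higher together in PANC-1, because NRF2 acts through a short element that can be looked for. The letters TGACNNNGC and TGAGNNNGC, which hold the core of the antioxidant response element, were searched on both strands from 250 bases before to 50 bases after the RefSeq starts on GRCh38.p14. All 10 genes matched, with 13 starts, and 8 of these starts in 7 genes held a match to either motif. Of all 35116 human promoter windows of 300 bases, 29.1% did (13.3% for TGACNNNGC and 18.3% for TGAGNNNGC). The NFE2L2 matches all lie at 1 of its 2 starts. The bases after that start were not found in the transcript, so that start is uncertain. The stretches below run 5′ to 3′ on the strand of the gene, and capitals mark the match. They stop before annotated exons, except that the GCLM stretch ends on the outermost annotated base of that gene.
GCLM, chr1:93909456-93909570, minus strand: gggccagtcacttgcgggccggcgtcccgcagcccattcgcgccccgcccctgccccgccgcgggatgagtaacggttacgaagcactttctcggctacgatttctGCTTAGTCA
TXNRD1, upstream start, chr12:104215639-104215778, plus strand: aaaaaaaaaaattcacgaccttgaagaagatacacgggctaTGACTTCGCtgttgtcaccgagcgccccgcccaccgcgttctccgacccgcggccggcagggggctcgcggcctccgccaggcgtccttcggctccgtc
OSGIN1, chr16:83953100-83953221, plus strand: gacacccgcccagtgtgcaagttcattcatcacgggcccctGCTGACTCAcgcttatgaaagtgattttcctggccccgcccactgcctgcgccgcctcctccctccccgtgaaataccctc
GCLC, no match in the window, chr6:53545130-53545241, minus strand: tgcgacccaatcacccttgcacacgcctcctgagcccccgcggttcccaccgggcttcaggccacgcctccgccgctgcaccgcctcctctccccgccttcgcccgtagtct
Read on the opposite strand, the GCLM match is TGACTAAGC, beginning 34 bases before the start, and the OSGIN1 match is TGAGTCAGC, beginning 99 bases before it. At its downstream start TXNRD1 held TGAGCAGGC and GCTTTGTCA, and a further match crosses the GCLM start and the upstream TXNRD1 start. GPX2 held GCTAAGTCA, 122 bases before its start, and NQO1 held GCAGCCTCA, 119 bases before its start. KEAP1 and NFE2L2, whose PANC-1 values below are small, also held matches. KEAP1 held GCTTAGTCA, the same letters as in GCLM, 31 bases before a start, with TGACACGGC and GCGCGCTCA farther from it. NFE2L2 held TGAGCCCGC and TGAGCCGGC, 146 and 16 bases before the uncertain start. SRXN1, TXN and GCLC had no match in these windows. A match is a description of the letters, and elements farther from the start were not looked for.

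On GRCh38 the synthesis genes lie at chr6:53497341-53616970 (GCLC) and chr1:93885205-93909456 (GCLM), TXNRD1 at chr12:104215779-104350305, NQO1 at chr16:69706996-69726951, SRXN1 at chr20:646615-653370 and OSGIN1 at chr16:83948282-83966332. NFE2L2 lies at chr2:177227595-177392697, KEAP1 at chr19:10486120-10503741, TXN at chr9:110243811-110256640 and GPX2 at chr14:64939152-64942905. All are annotated as coding genes. TXN has 7 named pseudogenes. EID3, at 17.3 to 22.4 TPM in PANC-1, and the pseudogene RPL18AP3, at 3.37 to 8.47 TPM over all libraries, lie inside TXNRD1 on the same strand. AC009119.2, a coding gene without values here, overlaps OSGIN1 on the same strand. The values of TXN, TXNRD1 and OSGIN1 are uncertain to that extent.

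The level of each gene came first, since the lines entered the treatments from different points. Levels in TPM can be compared between genes because they are scaled by length. In the AsPC-1 vehicle library the order was TXN (425 TPM), NQO1 (337), GPX2 (189), TXNRD1 (154), SRXN1 (57.6), KEAP1 (43.5), GCLC (20.6), NFE2L2 (18.6), GCLM (3.86) and OSGIN1 (3.13). Over the 4 AsPC-1 libraries the ranges of neighbours in this order did not overlap, except those of GPX2 and TXNRD1. In the PANC-1 vehicle library it was TXN (216 TPM), NQO1 (166), TXNRD1 (107), KEAP1 (59.9), SRXN1 (55.0), NFE2L2 (25.2), GCLM (22.3), GCLC (18.0) and OSGIN1 (5.71), with GPX2 listed at 0. There the ranges of neighbours overlapped for TXN with NQO1, NQO1 with TXNRD1, KEAP1 with SRXN1, and NFE2L2 with GCLM and GCLM with GCLC.

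The largest gap between the lines was that of GPX2, a selenium-containing glutathione peroxidase of epithelial cells. It was at 189, 195, 213 and 215 TPM in the AsPC-1 libraries with vehicle, roseoflavin, trametinib and both, and was listed at 0 in all 4 PANC-1 libraries, so no fold is given. CHURC1 lies over GPX2 on the other strand and was at 19.9 to 25.1 TPM in all 8 libraries. GCLM, the modifier subunit that raises the activity of glutamate-cysteine ligase, was at 3.86 to 4.97 TPM in AsPC-1 and at 22.3 to 39.9 TPM in PANC-1. Its level was 2.49 higher in PANC-1 on the log2(TPM + 1) scale (SE 0.161, limma adjusted p 8.42e-06).

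The catalytic subunit GCLC did not share that gap. It was at 20.6 to 23.0 TPM in AsPC-1 and 17.1 to 29.8 TPM in PANC-1, ranges that overlap, with a difference of 0.02 (SE 0.121, adjusted p 0.895). The number of GCLM transcripts per GCLC transcript was therefore 0.187 to 0.227 in AsPC-1 and 1.24 to 1.49 in PANC-1. This ratio is taken within a library and does not depend on the total. Its 4 values in each line did not overlap (exact two-sided permutation p = 0.0286, the smallest that 4 against 4 allows, and 0.0857 adjusted over 3 ratios). The ratio of TXNRD1 to TXN was 0.362 to 0.481 in AsPC-1 and 0.458 to 0.698 in PANC-1, ranges that overlap (exact permutation p = 0.0571, adjusted 0.0857). These permutations did not pair libraries by treatment, and the 4 libraries of a line differ in treatment. Within each treatment the TXNRD1 to TXN ratio was higher in PANC-1. It was 0.4952 against 0.3618 with vehicle and 0.6435 against 0.4494 with roseoflavin. With trametinib it was 0.4584 against 0.4558, and with both 0.6982 against 0.481. The ratio of NFE2L2 to KEAP1 was 0.396 to 0.471 in AsPC-1, overlapping the 0.391 to 0.420 of PANC-1 (exact permutation p = 0.543, adjusted 0.543).

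Over all 10 genes, 8 passed the adjusted threshold for a difference in level, against 83.8% of all genes tested, so a call was close to the background. GPX2 is among the 8, but it entered the test through AsPC-1 alone, so its call follows from the filter and carries no weight. NQO1 (difference -0.81, SE 0.109), TXN (-0.78, SE 0.0526), TXNRD1 (-0.40, SE 0.0973) and GPX2 were lower in PANC-1. GCLM, KEAP1 (0.53, SE 0.0398), NFE2L2 (0.47, SE 0.0492) and OSGIN1 (1.20, SE 0.261) were higher there. The median gene was 0.55 higher in PANC-1 and the mitochondrial share differed as given above. With mitochondrial transcripts removed and the rest rescaled, the median was 0.25 higher, the call for NFE2L2 was lost (0.09, adjusted p 0.0883), and GCLC was lower in PANC-1 (-0.36, adjusted p 0.0231). Under quantile normalization, with a median of 0.04, the values were 0.07 for KEAP1 (adjusted p 0.0933), -0.05 for NFE2L2 (0.298), 0.64 for OSGIN1 (0.0522) and -0.50 for GCLC (0.00761). SRXN1 was 0.21 higher in PANC-1 (SE 0.0955, adjusted p 0.0795), and lower there under both rescalings (-0.18 and -0.24). GCLM, NQO1, TXN and TXNRD1 kept their direction and call under both.

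**Figure D1:**
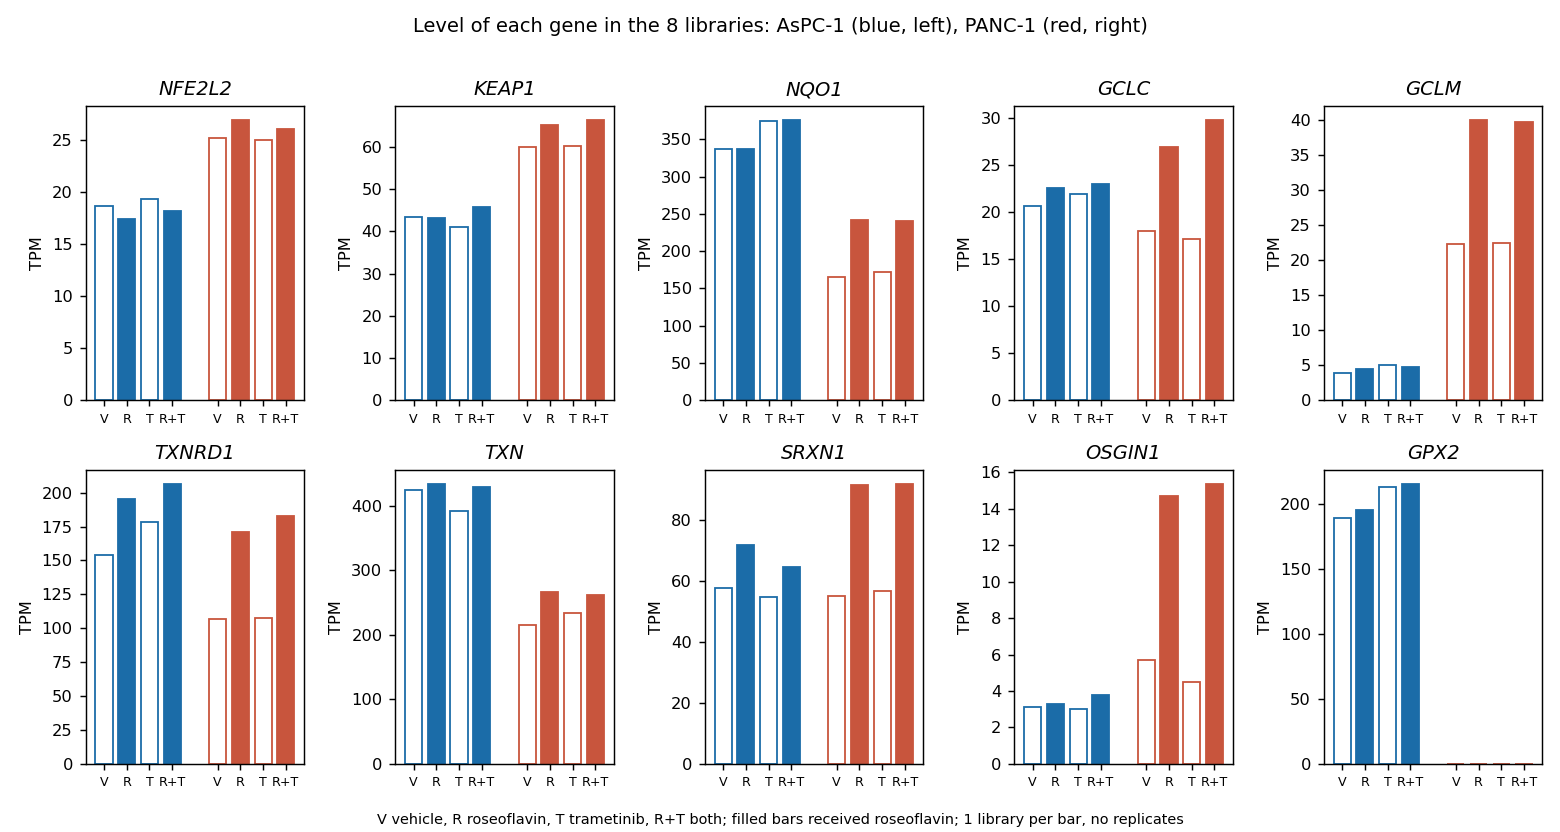
Bars give the TPM of each gene in the 8 libraries (1 library per bar, axes from 0), AsPC-1 in blue and PANC-1 in red, filled where roseoflavin was given. In PANC-1 both filled bars stand above both open bars for every gene but GPX2, which is listed at 0, while in AsPC-1 NQO1 stands at 337 and 338 TPM without trametinib and at 375 and 376 TPM with it.

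The next comparison asked what roseoflavin did to these genes in PANC-1. All 9 detected genes were higher with roseoflavin, both without and with trametinib, and 6 of them by at least 0.3 on the log2(TPM + 1) scale in both comparisons: OSGIN1, GCLM, TXNRD1, SRXN1, GCLC and NQO1. Of the 19122 genes tested 2.35% met that rule, as did 1.44% of the 9368 genes averaging 10 TPM or more, and none of the 10 met it downward, against 2.22% of genes tested. In the limma model that keeps the lines apart, 7 of the 9 had an unadjusted p under 0.05 upward, against 5.84% of all genes, and none downward, against 5.01%. None passed the Benjamini-Hochberg threshold over all genes (0%, 2074 genes with an unadjusted p under 0.05 in either direction), and the adjusted p of the 9 ran from 0.221 to 0.580. Their median change was 0.66, beside 0 for all genes. The figures for all genes keep genes listed at 0 in PANC-1, as GPX2 is, while the 9 leave GPX2 out.

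OSGIN1, a p53- and NRF2-responsive gene whose product restrains growth under oxidative stress, had the highest value of the 9. It was at 5.71 TPM with vehicle and 14.7 TPM with roseoflavin, and at 4.52 TPM with trametinib and 15.4 TPM with both. These are ratios of 2.57 and 3.40, with a fitted change of 1.40 (SE 0.116, 95% interval 1.07 to 1.72, adjusted p 0.221). Both libraries with roseoflavin lay above both without it. At such low levels the added 1 TPM of the log scale makes the fitted change smaller than the ratios.

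The subunits of glutamate-cysteine ligase, which makes the first bond of glutathione, were both higher. GCLM was at 22.3 and 39.9 TPM without trametinib and at 22.45 and 39.65 TPM with it, a change of 0.80 (SE 0.0760, interval 0.59 to 1.02, adjusted p 0.245). GCLC was at 18.0 and 26.9 TPM, and at 17.1 and 29.8 TPM on top of trametinib, a change of 0.66 (SE 0.0682, interval 0.47 to 0.85, adjusted p 0.245). Neither gene's libraries with and without roseoflavin overlapped. Among the 9368 genes averaging 10 TPM or more, GCLM ranked 21 and GCLC 41 by this value, counted from the highest.

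In the thioredoxin branch, the reductase had a larger value than its substrate. TXNRD1, the selenoenzyme that uses NADPH to reduce thioredoxin, was at 107 and 171 TPM without trametinib and at 107 and 183 TPM with it, a change of 0.72 (SE 0.0522, interval 0.57 to 0.87, adjusted p 0.221). TXN, thioredoxin itself, was at 216 and 266 TPM, and at 234 and 262 TPM on top of trametinib, with a smaller value of 0.23 (SE 0.0547, interval 0.08 to 0.38, adjusted p 0.398). The intervals of TXNRD1 and TXN did not overlap. SRXN1, sulfiredoxin, restores peroxiredoxins that were oxidised too far.

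SRXN1 was at 55.0 and 91.3 TPM without trametinib and at 56.5 and 91.8 TPM with it, a change of 0.71 (SE 0.0400, interval 0.59 to 0.82, adjusted p 0.221), and the groups did not overlap. The table also lists AL121758.1, a coding gene that spans SRXN1 on the same strand, at 50.7, 84.2, 52.3 and 84.7 TPM in the PANC-1 libraries with vehicle, roseoflavin, trametinib and both. Reads of the 2 genes cannot be told apart here, so the SRXN1 value belongs to the pair. NQO1, the FAD enzyme that reduces quinones by 2 electrons and is also a target of the aryl hydrocarbon receptor, was at 166 and 242 TPM, and at 172 and 241 TPM on top of trametinib. Its change was 0.51 (SE 0.0363, interval 0.41 to 0.61, adjusted p 0.221).

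The values of the regulators were small beside those of the 6 targets that met the rule. KEAP1 was at 59.9 and 65.4 TPM without trametinib and at 60.2 and 66.4 TPM with it, a value of 0.13 (SE 0.0565, interval -0.03 to 0.29, adjusted p 0.509). NFE2L2 was at 25.2 and 26.9 TPM, and at 24.9 and 26.0 TPM on top of trametinib, a value of 0.07 (SE 0.0413, interval -0.04 to 0.19, adjusted p 0.580). Both intervals include 0 and end below the interval of each of the 6 targets named above. Those 6 were picked for their high values, so this gap is a description and not a test. The interval of the target TXN, 0.08 to 0.38, overlapped that of KEAP1 and that of NFE2L2. The mitochondrial share of TPM was 25.6% and 24.8% in the PANC-1 libraries without roseoflavin and 23.7% and 22.8% in those with it. With mitochondrial transcripts removed, the changes of the 6 targets ran from 0.48 for NQO1 to 1.40 for OSGIN1, and 6 genes still met the rule.

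**Figure D2:**
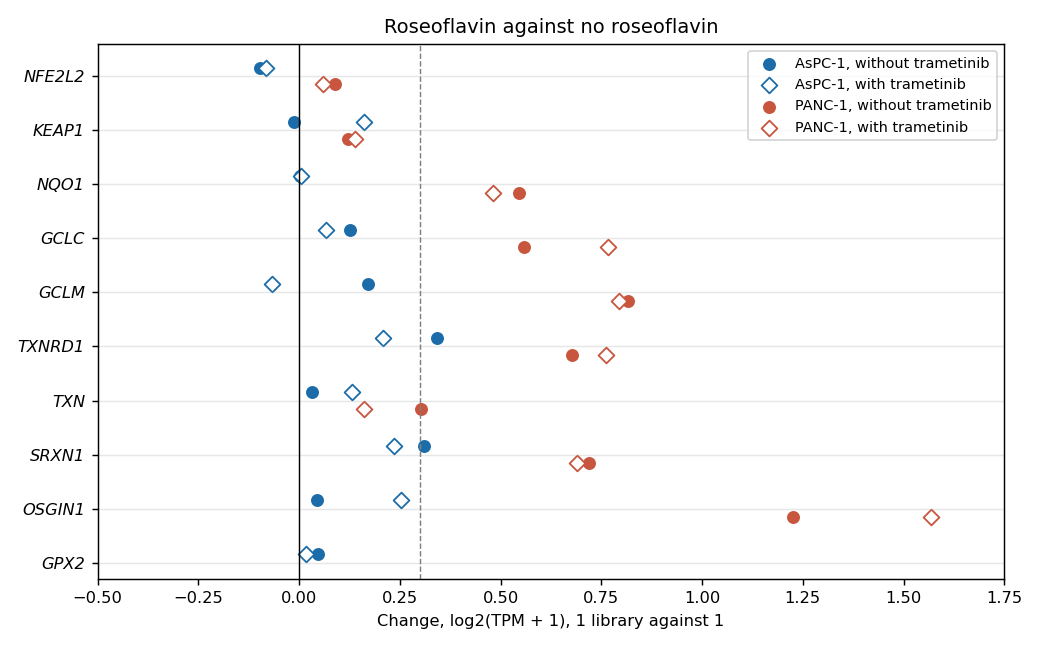
Points give the change in log2(TPM + 1) between 1 library with roseoflavin and 1 without, for AsPC-1 (blue) and PANC-1 (red), filled without trametinib and open with it, and the dashed line marks 0.3. For 6 genes both red points lie beyond the line, from 0.48 for NQO1 to 1.57 for OSGIN1, and no gene has both blue points beyond it.

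In AsPC-1 the same comparison gave smaller values. None of the 10 genes was at least 0.3 higher in both comparisons, against 1.07% of all genes tested and 0.427% of those averaging 10 TPM or more, and none at least 0.3 lower, against 3.05%. TXNRD1 and SRXN1 had an unadjusted p under 0.05 upward, 2 of 10 against 2.75% of all genes, none had one downward, against 8.57%, and none passed the adjusted threshold (0%, 2163 genes with an unadjusted p under 0.05 in either direction). The median change of the 10 was 0.08, beside -0.03 for all genes.

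TXNRD1 was at 154 and 195 TPM without trametinib and at 179 and 207 TPM with it, a fitted value of 0.28 (SE 0.0522, interval 0.13 to 0.42, adjusted p 0.380). SRXN1 was at 57.6 and 71.6 TPM, and at 54.6 and 64.4 TPM on top of trametinib, with 0.27 (SE 0.0400, interval 0.16 to 0.38, adjusted p 0.355). For SRXN1 the 2 libraries with roseoflavin lay above the 2 without, as they did for TXNRD1. NQO1 was at 337 and 338 TPM and at 375 and 376 TPM, a value of 0.0034 with an interval of -0.10 to 0.11. GCLM was at 3.86 and 4.48 TPM without trametinib and at 4.97 and 4.70 TPM with it, so the direction differed between the comparisons (fitted 0.05, SE 0.0760). OSGIN1 was at 3.13 and 3.26 TPM and at 3.02 and 3.80 TPM (0.15, SE 0.116). GCLC (0.10), TXN (0.08), KEAP1 (0.07) and GPX2 (0.03) had intervals that include 0, as did NFE2L2, the only one with a negative value (-0.09, interval -0.21 to 0.03).

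The difference in the roseoflavin change, PANC-1 minus AsPC-1, was positive for all 9 genes measured in both lines. In 6 of the 9, the same 6 targets, it had an unadjusted p under 0.05, against 8.11% of all genes upward, and none downward, against 3.54%. None passed the adjusted threshold (0%, 2227 genes with an unadjusted p under 0.05 in either direction). The difference was 1.25 for OSGIN1 (SE 0.164, adjusted p 0.336), 0.75 for GCLM (SE 0.107), 0.57 for GCLC (SE 0.0964), 0.51 for NQO1 (SE 0.0514, adjusted p 0.308), 0.44 for TXNRD1 (SE 0.0738) and 0.43 for SRXN1 (SE 0.0566). For NFE2L2 it was 0.16 (SE 0.0584, adjusted p 0.428), lower in both AsPC-1 comparisons and higher in both of PANC-1. For TXN it was 0.15 (interval -0.07 to 0.37) and for KEAP1 0.06 (interval -0.17 to 0.28). Over both lines together 0 genes passed (1358 with an unadjusted p under 0.05), and 7 of the 10 genes had an unadjusted p under 0.05 upward, against 2.03% of all genes. That model has no terms for a line's own response, so the count does not show a change shared by both lines. Among the genes counted, GCLC, GCLM, KEAP1, TXN and OSGIN1 had AsPC-1 intervals that include 0.

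**Figure D3:**
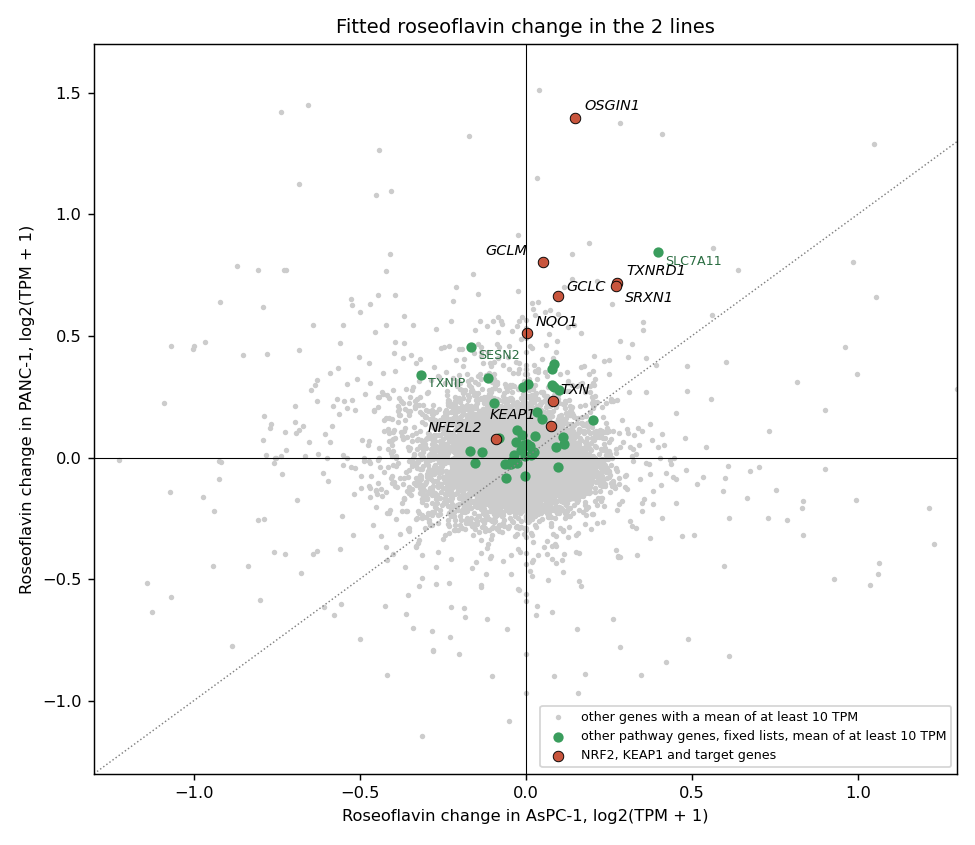
Each point is a gene, with its fitted roseoflavin change in AsPC-1 on the horizontal and in PANC-1 on the vertical axis, both in log2(TPM + 1), and the dotted line marks equal change. Red points are the genes described here without GPX2, green points other pathway genes, grey points the other genes averaging 10 TPM or more, and 15 of 9369 genes lie outside the axes. All red points stand above the line, the 6 targets farthest from it and NFE2L2, TXN and KEAP1 nearer to it. NFE2L2 and KEAP1 lie within the grey cloud.

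The other genes of the pathway were taken from 4 lists with 52 genes. All passed the filter on TPM, GPX3 and GPX7 through PANC-1 alone. By the same rule 5 of 52 were at least 0.3 higher in both PANC-1 comparisons and 1 of 52 in AsPC-1, against 2.35% and 1.07% of all genes tested. None was at least 0.3 lower in either line, against 2.22% and 3.05%, so 1 of 52 and the counts of 0 were near the background. The median change was 0.05 in PANC-1, beside 0 for all genes, and -0.0014 in AsPC-1, beside -0.03. GPX3 and GPX7, listed at 0 in AsPC-1, stay in its count and median as unchanged genes. None of the 52 passed the adjusted threshold in either line.

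Among the partners and regulators of NRF2 the PANC-1 median of 9 genes was 0.11, beside 0 for all genes, and the 2 that met the rule, against 2.35% of all genes, were SQSTM1 and BACH1. SQSTM1, the autophagy receptor p62 that binds KEAP1, was at 327 and 426 TPM without trametinib and at 325 and 425 TPM with it (0.38, adjusted p 0.251). BACH1, a repressor that competes for the same elements, was at 7.96 and 10.1 TPM and at 7.88 and 10.3 TPM (0.33, adjusted p 0.340). MAFG, a small MAF partner, had a value of 0.22 (adjusted p 0.398).

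Of 24 genes of glutathione supply and use, 2 met the rule in PANC-1, against 2.35% of all genes, and the list's median was 0.06, beside 0. SLC7A11, the cystine importer that feeds glutathione synthesis, was at 6.61 and 12.1 TPM and at 6.87 and 13.8 TPM (0.84, adjusted p 0.221), and was the 1 list gene that met it in AsPC-1, at 14.0 and 18.8 TPM and at 12.4 and 16.7 TPM (0.40, adjusted p 0.355). CHAC1, which degrades glutathione and is a target of the stress factor ATF4, was at 24.6 and 32.7 TPM and at 25.7 and 32.6 TPM in PANC-1 (0.36, adjusted p 0.252). SLC3A2, the partner chain of SLC7A11, had a value of 0.30 (adjusted p 0.280).

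In the thioredoxin list of 14 genes the PANC-1 median was 0.03, and 1 gene met the rule, against 2.35% of all genes. It was SESN2, a sestrin induced by stress, at 23.9 and 31.9 TPM and at 23.25 and 33.5 TPM (0.46, adjusted p 0.348). PRDX1, a peroxiredoxin that thioredoxin reduces, was at 659 and 836 TPM and at 695 and 821 TPM (0.29, adjusted p 0.322). TXNIP, which binds and inhibits thioredoxin, was at 87.9 and 104 TPM and at 85.0 and 116 TPM in PANC-1 (0.34, adjusted p 0.386). In AsPC-1 it was at 413 and 350 TPM and at 448 and 342 TPM (-0.31, adjusted p 0.380), the opposite direction, and the difference between the lines was 0.66 (adjusted p 0.336). Among relatives of the other genes, NQO2 had a value of 0.29 in PANC-1 (adjusted p 0.313) and CAT, catalase, -0.15 in AsPC-1 (adjusted p 0.382).

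The genes most like GCLM, TXNRD1 and SRXN1 across the 8 libraries, after each line's mean was subtracted, were TCEA1 (Pearson r 0.993), XPOT (0.993), CHAC1 (0.989), RPL4 (0.978) and SARS1 (0.975), out of 8630 named genes averaging 10 TPM or more. These r values describe 8 libraries that share lines and treatments and carry no test. GCLC was at 0.981, NQO1 at 0.942, TXN at 0.853, KEAP1 at 0.783, NFE2L2 at 0.384 and GPX2 at 0.149, none of which helped to set the profile. TCEA1, a transcription elongation factor, was at 90.6 and 114 TPM without trametinib and at 89.6 and 116 TPM with it in PANC-1. XPOT, which exports tRNA, and SARS1, the seryl-tRNA synthetase, had PANC-1 values of 0.22 and 0.35, and RPL4, a ribosomal protein, 0.13. In AsPC-1 the roseoflavin values were 0.06 for TCEA1, 0.04 for XPOT, 0.08 for CHAC1, 0.02 for RPL4 and 0.04 for SARS1. There GCLM had 0.05, TXNRD1 0.28 and SRXN1 0.27.

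The last comparison asked whether trametinib acted on these genes, alone or on top of roseoflavin. In PANC-1 none had an unadjusted p under 0.05, against 2.46% of all genes upward and 2.35% downward, and the fitted values of the 9 ran from -0.11 to 0.05. None of the 19122 genes passed the adjusted threshold (0%, 919 with an unadjusted p under 0.05). In AsPC-1 none passed either (0%, 2691 with an unadjusted p under 0.05), and 3 of the 10 had an unadjusted p under 0.05 upward, against 9.42%, and 1 downward, against 4.65%. NQO1 was at 337 TPM with vehicle and 375 TPM with trametinib, and at 338 and 376 TPM on top of roseoflavin (0.15, SE 0.0363, adjusted p 0.296). GPX2 was at 189 and 213 TPM, and at 195 and 215 TPM on top of roseoflavin (0.15, SE 0.0450, adjusted p 0.322). The PANC-1 values of GPX2, all 0, add no spread to the error that the lines share. Its SE may therefore understate the spread in AsPC-1, and GPX2 is 1 of the 3 counted upward. TXNRD1 was at 154 and 179 TPM, and at 195 and 207 TPM on top of roseoflavin (0.15, adjusted p 0.352), and its value ran from 0.080 to 0.22 when single libraries were left out. SRXN1 was at 57.6 and 54.6 TPM, and at 71.6 and 64.4 TPM on top of roseoflavin (-0.11, adjusted p 0.352).

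**Figure D4:**
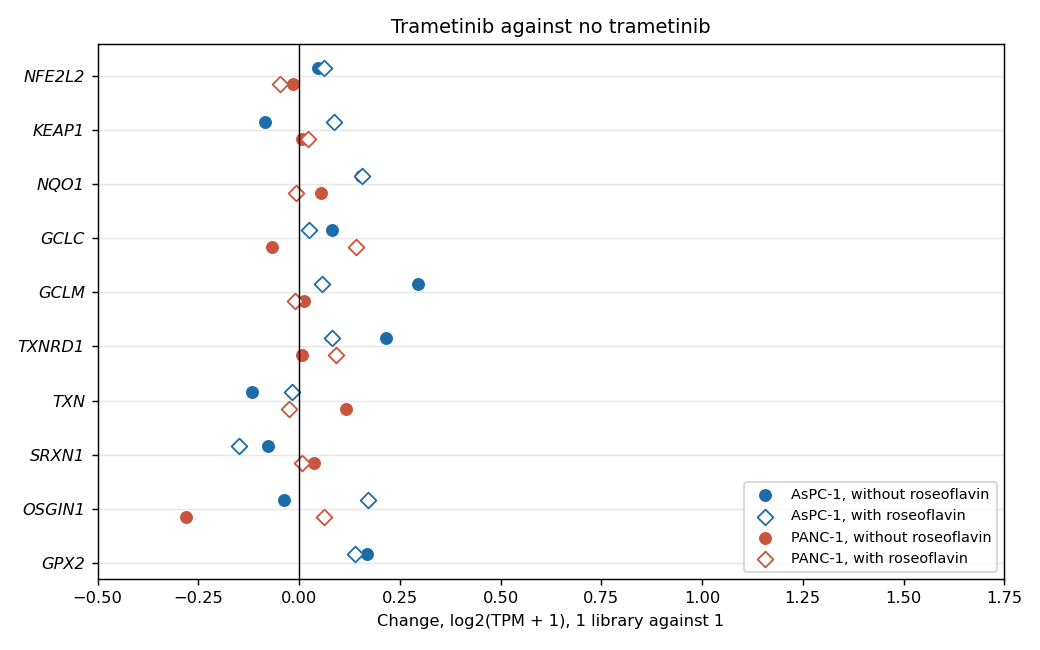
Points give the change in log2(TPM + 1) between 1 library with trametinib and 1 without, on the same axis as the plot of roseoflavin changes, filled without and open with roseoflavin. The points lie between -0.28 (OSGIN1 in PANC-1) and 0.30 (GCLM in AsPC-1), both from libraries without roseoflavin.

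Whether the compounds together departed from the sum of their changes was tested as an interaction. It gave 0 genes past the adjusted threshold (0%, 536 with an unadjusted p under 0.05), and none of the 10 had an unadjusted p under 0.05, against 1.8% of genes upward and 0.999% downward. Their values ran from -0.13 to 0.28. The widest interval among them was that of OSGIN1, from -1.11 to 1.66. The model has no term for a line's own response, so the difference of 1.25 between the lines in the roseoflavin change of OSGIN1 is part of that error. Within each line the roseoflavin change of OSGIN1 was larger on top of trametinib, 1.57 against 1.23 in PANC-1 and 0.25 against 0.04 in AsPC-1, with no test within a line. Against vehicle, the combination in PANC-1 gave ratios of TPM of 2.69 for OSGIN1, 1.78 for GCLM, 1.71 for TXNRD1, 1.67 for SRXN1, 1.66 for GCLC and 1.45 for NQO1. Roseoflavin alone gave 2.57, 1.79, 1.60, 1.66, 1.50 and 1.46 in the same order. In AsPC-1 the combination gave 1.34 for TXNRD1, 1.22 for GCLM, 1.21 for OSGIN1, 1.12 for SRXN1 and NQO1, and 1.11 for GCLC, 1 library against 1 with no test.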

How the data were processed

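The authors deposited 1 table of TPM for 62649 genes, whose 8 value columns are 1 library each by their names. The submitters' processing notes name STAR 2.7.3a, HTSeq 2.0.2 and hg38, without roles. The annotation and the strand setting are not given in the sources used here, so overlapping and antisense genes are uncertain. Labels state the TruSeq stranded mRNA kit. Blank rows (985926) were dropped.

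Values were analysed as log2(TPM + 1), for the 19122 genes that reached 1 TPM in 2 libraries. Models were fitted in limma 3.58.1 (R 4.3.3; lmFit, eBayes with trend) over all 8 libraries, with Benjamini-Hochberg adjustment at 0.05. Roseoflavin and trametinib changes per line and their difference came from a model with an interaction of line with each compound (2 residual degrees of freedom). Changes over both lines and levels came from the additive model (4), and the interaction of compounds from a model with that term (3). P-values measure only the spread between these libraries. No depth or counting error can be had from TPM. Ratios within libraries were compared by exact permutation (SciPy 1.17.1).

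The members and lists were chosen with earlier results of these data known. Named besides the members were at most 4 genes per list, by largest roseoflavin change in either line or smallest p of the difference, averaging 5 TPM or more, and the 5 genes of most similar pattern. Promoters are from RefSeq on GRCh38.p14, and overlaps and exons from GENCODE 29 on GRCh38. The fitting was tested on simulated data. Alternatives were no filter, a mean of at least 10 TPM, a pseudocount of 0.1, quantile normalization, removal of mitochondrial transcripts, a model with an interaction of line with the tested compound only, and leaving out each library.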

Additional observations from a re-analysis of the deposited data

How the results depend on the processing

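No analysis with a replicate block was possible because each group has 1 library and the labels give no replicate numbers. Libraries were matched by line and compound through the terms of each model, and the ratios within libraries were tested without pairing by treatment. The number of targets at least 0.3 higher in both PANC-1 comparisons was 6 under each alternative that could be run except the filter on a mean of at least 10 TPM, which leaves OSGIN1 out and gave 5. It could not be counted without a PANC-1 library. No member passed the adjusted threshold for a roseoflavin change in either line, or for its difference, under any alternative. The model with an interaction of line with the tested compound only gave 5 genes for the difference in the roseoflavin change and 2 for trametinib in PANC-1, where the model used in the report gave 0, and the cause was not tested. With the filter on a mean of at least 10 TPM, which tests fewer genes, 8388 genes differed in level between the lines, against 16027. The following single-gene values changed sign. For the roseoflavin change in AsPC-1 these were NQO1 (-0.0049 under quantile normalization) and, when single libraries were left out, GCLM (-0.067 to 0.17) and KEAP1 (-0.012 to 0.16). For the difference in the roseoflavin change it was KEAP1 (-0.0056 without mitochondrial transcripts, and -0.030 to 0.14 with libraries left out). The interaction of the compounds was recomputed for OSGIN1 alone among single genes (-0.22 to 0.77 with libraries left out). For levels between lines these were GCLC (-0.50 under quantile normalization, -0.36 without mitochondrial transcripts, -0.077 to 0.12 with libraries left out), NFE2L2 (-0.054 under quantile normalization) and SRXN1 (-0.24 and -0.18). The SRXN1 level passed the threshold without the AsPC-1 vehicle library (0.27) or without the PANC-1 vehicle library (0.28). TPM give no depth, so no limit of detection can be stated for GPX2 in PANC-1.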
